A study of Drosophila melanogaster with 2 samples.

Results

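The signal recognition particle (SRP) is the ribonucleoprotein that guides ribosomes making secreted and membrane proteins to the endoplasmic reticulum. Its RNA, its protein subunits and its receptor were followed in RNA recovered from fly ovaries by RNA immunoprecipitation (RIP), in which an antibody pulls a protein out of a lysate with the RNA it carries. The members were every gene whose symbol contains 7SL and the genes Srp9, Srp14, Srp19, Srp54k, Srp68, Srp72, SrpRalpha and SrpRbeta. Of these, 9 were found by symbol. SrpRalpha is listed as Gtp-bp, a synonym that a RefSeq table gives for SrpRalpha at the same locus, and it was included as Gtp-bp. This gave 10 genes of 17720 in each table, 2 RNA genes and 8 protein-coding genes. Srp54, a gene of similar name that encodes an SR-type splicing protein, is no member.

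The Lsd1-RIP library came from a reaction with an antibody against Lsd1, an enzyme that removes methyl groups from histone H3, and the control, titled IgG-RIP, from a reaction whose antibody is labelled as anti-GFP. Both were made from 1 ovarian lysate of Drosophila melanogaster (Oregon-R, a wild-type strain), from females at most 12 hours after eclosion, with about 200 females for each RIP. RNA was sequenced without poly(A) selection, so that noncoding RNA is in the libraries, and with a kit that does not mark strand. There was 1 library per group, so no test between conditions was possible, no p-value is given, and the spread between repeated precipitations is unknown.

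In the SRP, 7SL RNA, a short transcript of RNA polymerase III, is the scaffold on which the proteins assemble. In mammals, Srp9 and Srp14 form the heterodimer on its Alu domain that slows elongation, while Srp19, Srp68, Srp72 and the GTPase Srp54 sit on its S domain, where Srp54 holds the signal sequence. The receptor on the endoplasmic reticulum membrane, made of the alpha and beta subunits, binds the particle and hands the ribosome to the Sec61 channel. Neither antibody used here recognises SRP, and the values describe how much of each RNA came down in each reaction.

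Values are the authors' FPKM, fragments per kilobase of transcript scaled to the size of the library, each with a deposited lower and upper bound given here in brackets. Each bound was read as 2 standard deviations of counting error away from its value. From them an approximate number of fragments behind each value was derived. The Lsd1-RIP table held about 2494964 fragments and the IgG-RIP table about 2661722, and outside ribosomal RNA loci these were about 1201797 in the Lsd1-RIP and 1039524 in the IgG-RIP table. The ratio used is the difference of log2(FPKM + 1), Lsd1-RIP minus IgG-RIP. It was set beside that of all 6025 eligible genes, those with an accepted estimate in both tables and a mean FPKM of 1 or more. All 10 members were eligible. The median ratio of eligible genes was 0.32, and the middle 50% lay between 0.13 and 0.52, so a gene with equal FPKM in both libraries stood below most genes. Ovarian markers were present, with vas at 13.6 FPKM in the Lsd1-RIP and 10.5 in the IgG-RIP library and the follicle cell gene tj at 6.29 in the Lsd1-RIP and 5.04 in the IgG-RIP library. In the Lsd1-RIP library the 4 fat body markers summed to 0.537 FPKM, the 4 nervous system markers to 0.287 and the 4 gut markers to 19.1, against 0.254, 0.175 and 13.4 in the IgG-RIP library. The fat body marker Fbp2, the neuronal marker Syt1 and the gut marker Npc2d were listed at 0 in both, while the gut trypsin gene alphaTry had 12.8 FPKM in the Lsd1-RIP and 7.87 in the IgG-RIP library. The median log2 ratio was 0.84 for 7 germline markers, 0.47 for 4 eligible follicle cell markers and -0.17 for 4 eligible muscle sheath markers. The muscle markers were split, with up at -0.96 and Mhc at -0.48 but Act57B at 0.16 and Mlc2 at 0.14. The muscle marker sls, not eligible, was at 0.56. The follicle cell marker slbo, also not eligible, had 0.0732 FPKM in the Lsd1-RIP and 0.105 in the IgG-RIP library. By approximate fragments, scaled by depth, the all-gene median was 0.43, and the marker groups stood differently. Of the germline markers, vas was then at 0.47, osk at 0.41, orb at 0.48 and aub at 0.43. The others were nos at 1.36, otu at 1.06 and bam at 1.12. Of the follicle cell markers, cad was at 1.27, br at 1.09, tj at 0.31 and Fas3 at 0.22. So the higher median of germline than follicle cell markers did not hold by fragments. Whether the differences between marker groups bear on the ratios below was not tested. In levels from whole tissue, fewer cells of a type and less RNA per cell cannot be told apart. Both reactions shared 1 lysate and so the same input of cells.

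7SL RNA was among the most abundant RNAs of both precipitates and had almost equal FPKM in both on the authors' scaling. 7SLRNA:CR42652 (dm6 3R:6820133-6820431) had an FPKM of 6943 (6784 to 7102) in the Lsd1-RIP library and 6877 (6730 to 7024) in the IgG-RIP library. 7SLRNA:CR32864 (3R:6822498-6822796) had 6938 (6780 to 7097) in the Lsd1-RIP library and 6869 (6723 to 7016) in the IgG-RIP library. The intervals overlapped for both copies. Summed, 7SL RNA had 13881 FPKM in the Lsd1-RIP and 13746 in the IgG-RIP library, a fold of 1.01, with the log2 ratio at 0.01 (interval -0.03 to 0.06).

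Relative to other genes this placed 7SL RNA on the low side. Its interval lay below the all-gene median of 0.32, as did that of 12.7% of eligible genes, and 15.5% of eligible genes (936 of 6025) had a lower ratio. As a share of approximate fragments outside ribosomal RNA loci, both copies summed held 1.27% in the Lsd1-RIP library (95% Wilson interval 1.25 to 1.29) and 1.69% in the IgG-RIP library (1.67 to 1.71), so the Lsd1-RIP share was 0.754 times the IgG-RIP share. These Wilson intervals take the fragments of both copies as separate counts, which may not hold. For 1 copy the share was 0.637% in the Lsd1-RIP and 0.845% in the IgG-RIP library. As a share of all listed fragments, ribosomal RNA pseudogenes included, both copies summed held 0.613% in the Lsd1-RIP and 0.660% in the IgG-RIP library. By level, the copies ranked at 8 and 9 of all genes in the Lsd1-RIP library and at 5 and 6 in the IgG-RIP library. Among all genes, 25 loci lacked an accepted estimate, so their places in this ranking are not known.

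The copies, whose sequences were not compared here, are genes of 299 nt each, 2066 nt apart, in a cluster of lysine tRNA genes. The 5 tRNA loci within a kilobase of them, 1 of them a pseudogene, were listed at 0 in both libraries. The FPKM of the copies differed by 0.0633% in the Lsd1-RIP and by 0.109% in the IgG-RIP library, while the bounds reached 2.29% either way in the Lsd1-RIP and 2.13% in the IgG-RIP library. How fragments that match both copies were divided is not given in the sources used here, so neither copy can be described apart from the other. If such fragments were counted at each copy, the sum counts them again. The log2 ratio between the libraries is 0.01 for the sum and for each copy alone. The RefSeq table places each copy 2 or 3 nt away from the authors' coordinates, which are the ones given here.

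**Figure D1:**
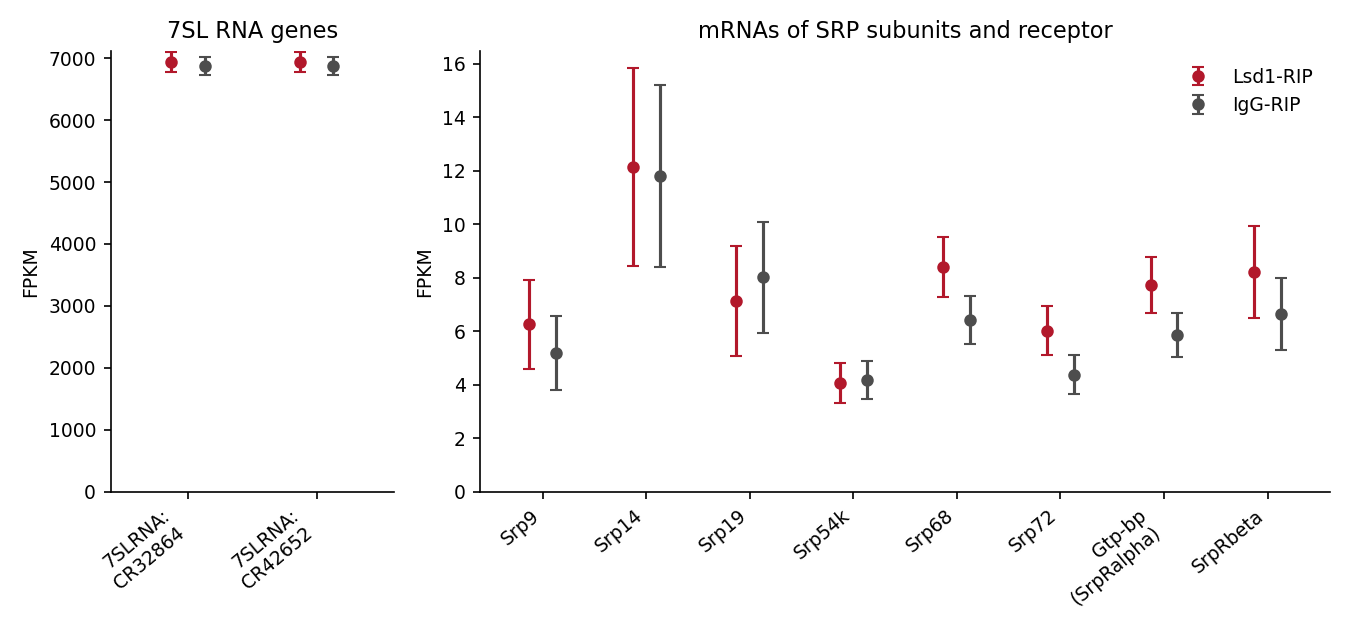
FPKM of the 2 7SL RNA genes (left) and of the 8 mRNAs of SRP subunits and receptor (right) on separate linear axes from 0, with the Lsd1-RIP library in red and the IgG-RIP library in grey. Points are the deposited FPKM and bars the deposited bounds, 1 library each. The bars of both libraries overlap for every gene, narrowly for Srp68, Srp72 and Gtp-bp.

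Of the mRNAs of the Alu domain proteins, Srp14 was close to even between the libraries and Srp9 nearer the all-gene median, both on few fragments. Srp9 (3L:7936373-7937258) had an FPKM of 6.26 (4.60 to 7.91) in the Lsd1-RIP library and 5.18 (3.79 to 6.56) in the IgG-RIP library. Its log2 ratio was 0.23 (interval -0.23 to 0.69). Srp14 (3R:20580115-20580764) had 12.1 (8.45 to 15.9) in the Lsd1-RIP and 11.8 (8.39 to 15.2) in the IgG-RIP library, a log2 ratio of 0.04 (-0.52 to 0.60). The intervals of both genes overlapped between the libraries. Srp9 rested on about 57.3 fragments in the Lsd1-RIP and 56.1 in the IgG-RIP library, and Srp14 on 43.1 in the Lsd1-RIP and 48.2 in the IgG-RIP library. At that depth a difference as large as the all-gene median could not be told from none for either gene.

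Of the mRNAs of the S domain proteins, Srp19 and Srp54k had ratios below 0 and Srp68 and Srp72 above it. This grouping was read from the ratios themselves. Srp54k against Srp72 was the 1 pair of all 28 mRNA pairs whose difference in ratio exceeded its interval. Srp19 (3L:7347310-7348034), whose protein helps load the GTPase onto the RNA, had 7.13 FPKM (5.06 to 9.19) in the Lsd1-RIP and 8.01 (5.95 to 10.1) in the IgG-RIP library. Its log2 ratio of -0.15 (-0.64 to 0.35) was the lowest of the 10 members, with 7.22% of eligible genes below it. Srp54k (3L:5152678-5154777), which encodes that signal-sequence-binding GTPase, had 4.06 FPKM (3.30 to 4.81) in the Lsd1-RIP and 4.16 (3.46 to 4.87) in the IgG-RIP library. Its ratio was -0.03 (-0.32 to 0.26). Its interval lay below the all-gene median, as did those of both 7SL RNA genes and of 12.7% of eligible genes.

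Srp68 and Srp72, whose proteins bind 7SL RNA as a heterodimer, stood at the all-gene median. Srp68 (3L:8975046-8977401) had 8.40 FPKM (7.28 to 9.52) in the Lsd1-RIP and 6.41 (5.51 to 7.31) in the IgG-RIP library, a log2 ratio of 0.34 (0.10 to 0.59). Srp72 (3R:20588711-20591040) had 6.02 (5.09 to 6.95) in the Lsd1-RIP and 4.36 (3.63 to 5.09) in the IgG-RIP library. Its ratio of 0.39 (0.11 to 0.66) was the highest of the 10, and 58.4% of eligible genes had a lower one. With the all-gene median removed, Srp68 was at 0.020 and Srp72 at 0.064.

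The receptor mRNAs had ratios close to the all-gene median too. Gtp-bp (X:11126877-11129087), the gene of the receptor's GTPase subunit alpha, had 7.73 FPKM (6.68 to 8.77) in the Lsd1-RIP and 5.86 (5.02 to 6.69) in the IgG-RIP library, a log2 ratio of 0.35 (0.10 to 0.59). SrpRbeta (3L:8718949-8720225), the gene of the membrane-anchored subunit, had 8.22 (6.50 to 9.93) in the Lsd1-RIP and 6.64 (5.30 to 7.98) in the IgG-RIP library, a ratio of 0.27 (-0.10 to 0.64). Both lay within 0.06 of the all-gene median on this scale. By approximate fragments Gtp-bp was at 0.38 but SrpRbeta at 0.13, beside an all-gene median of 0.43, so SrpRbeta was not close to it there.

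No member was 2-fold apart between the libraries, against 2.82% of eligible genes past a log2 ratio of 1 or -1. No member had deposited intervals that did not overlap, against 37.8% of eligible genes. For 3 of the 10 this was by a narrow margin between the Lsd1-RIP lower bound and the IgG-RIP upper bound. These bounds were 5.089 and 5.091 for Srp72, 6.680 and 6.692 for Gtp-bp, and 7.284 and 7.306 for Srp68. The interval of the ratio lay above 0 for 3 of the 10, Srp68, Srp72 and Gtp-bp, against 50.4% of eligible genes. It lay above the all-gene median for none, against 17.5%. It lay below the all-gene median for 3 of the 10, against 12.7% of eligible genes, and 2 of these 3 are the 7SL RNA copies, which are not independent of each other.

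**Figure D2:**
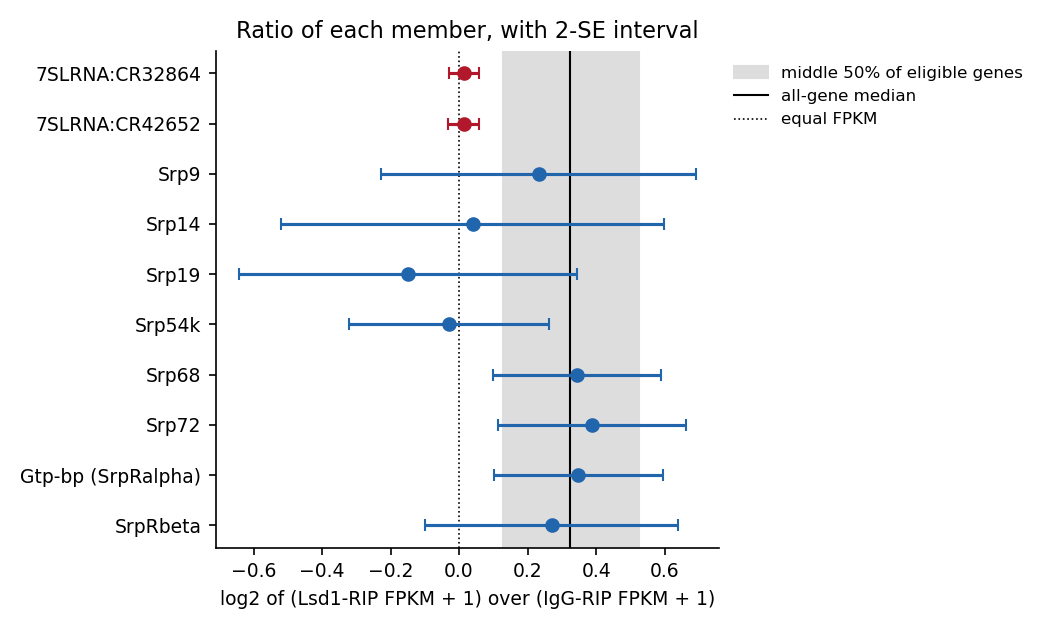
Log2 ratio of each member, Lsd1-RIP over IgG-RIP with 1 added to each FPKM, with intervals of 2 standard errors from the deposited bounds (7SL RNA in red, mRNAs in blue). The solid line is the all-gene median of 0.32, the grey band the middle 50% of eligible genes (0.13 to 0.52) and the dotted line equal FPKM. The 7SL RNA intervals end at 0.06, left of the band.

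The 8 mRNAs had a median log2 ratio of 0.25, from -0.15 to 0.39, beside 0.32 over all eligible genes. Of the 8, 3 lay above the all-gene median and 5 below it. The sign of their median depended on the scaling: it was -0.072 with the all-gene median removed and -0.089 with both libraries scaled to equal FPKM sums outside ribosomal RNA loci. 7SL RNA lay 0.24 below the mRNA median, with 6 mRNAs above 7SL RNA and Srp19 and Srp54k below. Over all eligible genes, 15.5% lay below 7SL RNA. The ratio of 7SL RNA was inside the interval of 5 of the 8 mRNAs, and the 3 exceptions were Srp68, Srp72 and Gtp-bp. Among the mRNAs, 1 of 28 pairs had ratios further apart than the interval of their difference. That pair was Srp72 and Srp54k, 0.42 apart with an interval of 0.40 either way. The share of pairs of other eligible genes that pass this limit was not computed, so 1 of 28 has no background.

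Levels differed more between members than between libraries. By FPKM, Srp14 was the highest mRNA in both libraries and Srp54k the lowest. In the Lsd1-RIP library Srp54k was followed upward by Srp72, Srp9, Srp19, Gtp-bp, SrpRbeta, Srp68 and Srp14, and neighbours in that order overlapped in 6 of 7 cases. The gap was between Srp54k and Srp72. In the IgG-RIP library the order upward was Srp54k, Srp72, Srp9, Gtp-bp, Srp68, SrpRbeta, Srp19 and Srp14, and all 7 neighbouring pairs overlapped. Of the 28 pairs, 24 had the same order in both libraries, and 8 were apart by their deposited intervals in both. Gtp-bp, Srp68 and SrpRbeta stood below Srp19 in the IgG-RIP library and above it in the Lsd1-RIP library, with overlapping intervals in each case.

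The rank of the short transcripts depended on the unit. For Srp14, the shortest mRNA locus at 650 nt, 1 FPKM stood for 6.33 approximate fragments per kilobase of locus, against 15.9 for Srp54k and 13.4 for Srp68. Counted as fragments per kilobase of locus, introns included, Srp14 had 66.3 in the Lsd1-RIP and 74.1 in the IgG-RIP library. On this scale Gtp-bp was highest in both, at 98.7 in the Lsd1-RIP and 88.6 in the IgG-RIP library, and Srp54k had 55.2 in the Lsd1-RIP and 66.2 in the IgG-RIP library. So the top place of Srp14 by FPKM did not hold per kilobase of locus.

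The same applies to the RNA against the proteins' mRNAs. The summed FPKM of 7SL RNA was 1869 times the median mRNA member in the Lsd1-RIP library and 2242 times in the IgG-RIP library, and that of 1 copy was 935 times in the Lsd1-RIP and 1121 times in the IgG-RIP library. For each copy, 1 FPKM stood for 4.29 approximate fragments per kilobase of locus. Counted as fragments per kilobase of locus, the sum was 741 times the median mRNA in the Lsd1-RIP and 779 times in the IgG-RIP library, and 1 copy 370.3 times in the Lsd1-RIP and 389.6 times in the IgG-RIP library. On both scales the RNA exceeded each of its protein partners' mRNAs by orders of magnitude, and the excess was smaller in the Lsd1-RIP library. The approximate fragments behind 7SL RNA, summed, were 15303 in the Lsd1-RIP and 17565 in the IgG-RIP library, and those behind the mRNAs were 43.1 to 226 in the Lsd1-RIP and 48.2 to 204 in the IgG-RIP library.

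**Figure D3:**
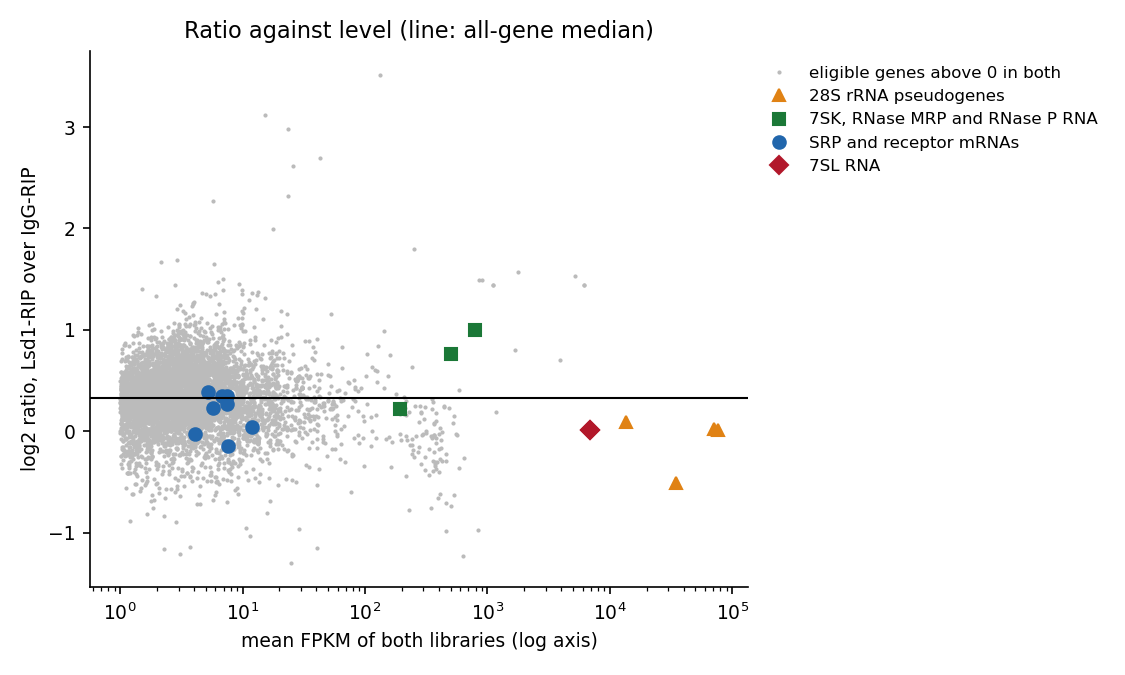
Log2 ratio, Lsd1-RIP over IgG-RIP, against the mean FPKM of both libraries on a log axis, for eligible genes listed above 0 in both (grey), the 8 SRP and receptor mRNAs (blue), 7SL RNA (red), 3 other structural RNAs (green) and 4 28S rRNA pseudogenes (orange). The line is the all-gene median of 0.32. 7SL RNA lies at 0.01, level with 2 of the orange points and below the green ones.

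Transcript length moved with the ratio over all genes. Eligible genes with at least 20 approximate fragments in each library were put in 12 groups by fragments per FPKM, which rises with transcript length. The median ratio was 0.12 in the shortest group and 0.61 in the longest. Srp14, Srp19 and both 7SL RNA genes were in the shortest group, and Srp9 and SrpRbeta in the next, with a median of 0.20. Srp54k, Srp68, Srp72 and Gtp-bp were in the seventh, with a median of 0.34. With the median of its own group removed, 7SL RNA was at -0.10, Srp14 at -0.077, Srp9 at 0.034, SrpRbeta at 0.073, Srp68 at 0.0080, Srp72 at 0.052 and Gtp-bp at 0.012. Srp19 was at -0.27 and Srp54k at -0.37, the members furthest from genes of like length, and the interval of Srp19 held its group's median, while that of Srp54k, which ended at 0.26, did not. Nor did that of 7SL RNA, which ended at 0.06. The share of eligible genes whose interval leaves out their group's median was not computed, so these calls have no background. The shortest group spanned 0.0245 to 8.73 fragments per FPKM, with a median of 5.41. 7SL RNA stood at 1.28, so many genes of its group are not of like length. The removal of length groups was added after the values were seen.

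**Figure D4:**
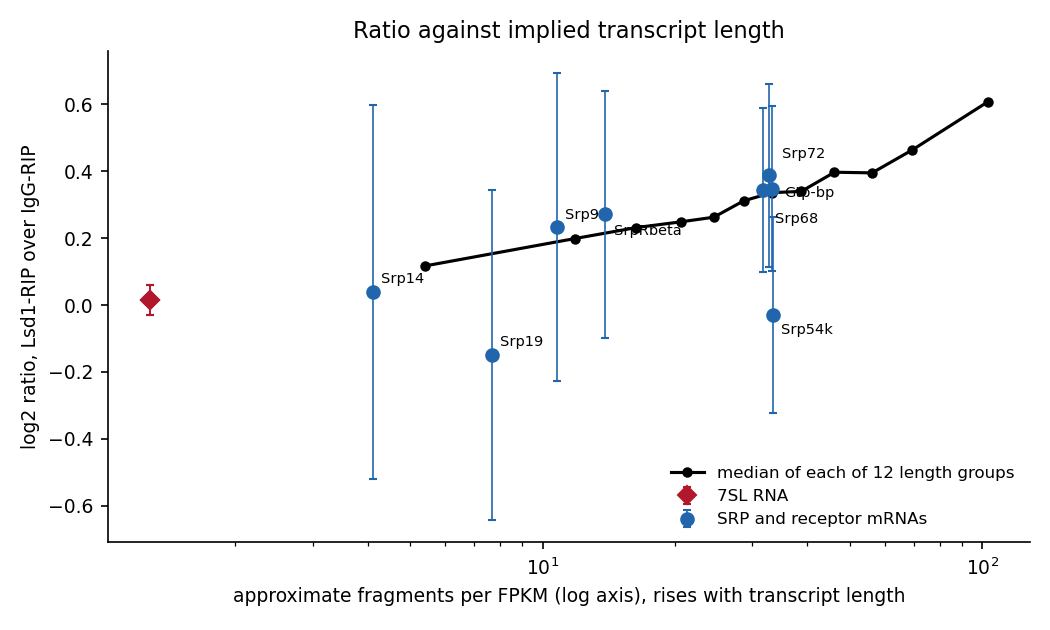
Log2 ratio, Lsd1-RIP over IgG-RIP, against approximate fragments per FPKM on a log axis, which rises with transcript length. Black points are the medians of 12 groups of eligible genes, from 0.12 to 0.61, and coloured points are 7SL RNA (red) and the 8 mRNAs (blue) with intervals of 2 standard errors. Srp54k lies 0.37 below its group.

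Overlapping loci touched 3 members. Srp14 shares 82 nt with CG34008, which had 1.68 FPKM in the Lsd1-RIP and 0.775 in the IgG-RIP library. The log2 ratio of approximate fragments, scaled by depth, was 0.065 for Srp14 alone and 0.25 for both genes summed. Srp72 shares 17 nt with Pus1, and the value was 0.45 for Srp72 and 0.46 for the sum. Srp68 shares 7 nt with CG5644, which was listed at 0 in both libraries. Without strand, fragments in the shared stretches cannot be assigned, so the near-even value of Srp14 holds only for the division the authors' counting made.

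The mRNAs of the machinery that takes over from SRP at the membrane lay around the all-gene median. Lists were written for the Sec61 translocon and its partners, the TRAP complex, the signal peptidase, the oligosaccharyltransferase, the ER membrane protein complex and folding factors of the endoplasmic reticulum. Together they held 39 eligible genes of 40 found. Their median ratio was 0.31, beside 0.25 for the SRP and receptor mRNAs and 0.32 over all eligible genes. On the log2(FPKM + 1) scale none was 2-fold higher and none 2-fold lower, against 2.12% and 0.697% of eligible genes. Spase12 passed 2-fold without that addition, with a log2 ratio of 1.06 at a pseudocount of 0.1 and 1.08 by approximate fragments. Of the 39, 15 lay above the all-gene median and 24 below. A lower ratio than 7SL RNA was found for 5 of the 39, against 15.5% of eligible genes. Spase22-23 was the gene not eligible, listed at 0 in both libraries.

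All 6 translocon mRNAs lay above 7SL RNA in ratio, as did most eligible genes, with 15.5% below it. Sec61beta, a small subunit of the channel, had deposited bounds of 26.3 to 33.7 FPKM in the Lsd1-RIP and 16.9 to 22.4 in the IgG-RIP library. It was 1.52-fold higher, a log2 ratio of 0.58, the highest of that list. TRAM, a membrane protein beside the channel, was the lowest at 0.24. In the TRAP complex, which associates with the translocon, SsRbeta was at 0.62 and l(1)G0320 at -0.03, with a list median of 0.45 over 4 genes. In the oligosaccharyltransferase, which attaches N-linked glycans to entering chains, Ostgamma was at 0.78 and OstDelta at 0.12, with a median of 0.31 over 8 genes.

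The signal peptidase, which removes the signal sequence, had the widest spread. Spase12 had 8.69 FPKM (5.73 to 11.6) in the Lsd1-RIP and 4.11 (2.23 to 5.99) in the IgG-RIP library, a log2 ratio of 0.92 (0.23 to 1.61) on about 34.4 fragments in the Lsd1-RIP and 19.0 in the IgG-RIP library. twr, the catalytic subunit gene, was at -0.07, and the median of the 3 eligible genes was -0.02. In the ER membrane protein complex, which inserts membrane proteins, CG11137 (EMC4 in RefSeq) was at 0.56 and CG11781 (EMC6) at -0.19, with a median of 0.32 over 10 genes. Among folding factors prtp was at 0.58 and Pdi, a protein disulfide isomerase gene, at -0.02, with a median of 0.18 over 8 genes. The nascent polypeptide-associated complex, which meets new chains at the ribosome beside SRP, was split: its beta subunit gene bic was at 0.43 (0.32 to 0.54) and Nacalpha at -0.03 (-0.15 to 0.10).

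**Figure D5:**
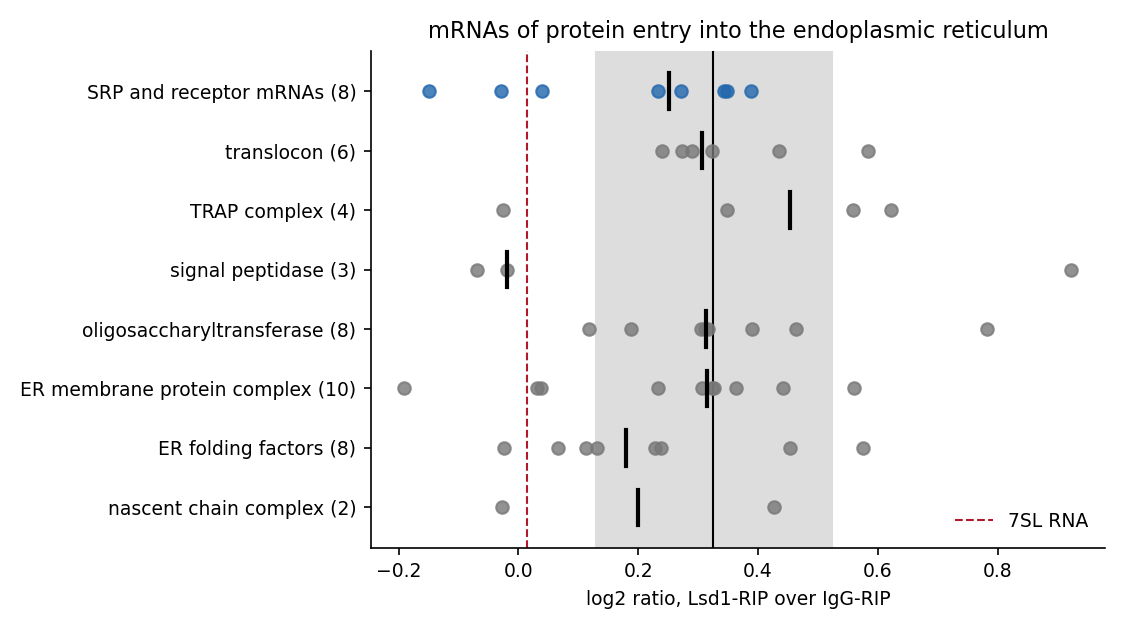
Log2 ratio, Lsd1-RIP over IgG-RIP, of eligible mRNAs listed above 0 in both libraries, by step of protein entry into the endoplasmic reticulum, with the number of genes in brackets. Bars are list medians, the solid line the all-gene median of 0.32, the grey band the middle 50% of eligible genes and the dashed red line 7SL RNA at 0.01. The SRP and receptor mRNAs (top row, median 0.25) overlap the other lists.

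The genes nearest to summed 7SL RNA in both libraries, by distance on log2(FPKM + 1) axes over 2 libraries, were ribosomal or nucleolar RNAs. The 28S rRNA pseudogene 28SrRNA-Psi:CR45855 was nearest, at a distance of 0.073, with 13901 FPKM in the Lsd1-RIP and 13065 in the IgG-RIP library and a log2 ratio of 0.09. That closeness rests on the sum, which may count the same fragments at both copies. The copy 7SLRNA:CR42652 alone had 6943 FPKM in the Lsd1-RIP and 6877 in the IgG-RIP library. Distances from 1 copy were not computed, and the nearest genes may differ. The next, 28SrRNA-Psi:CR45848, was at a distance of 1.88 with a ratio of -0.51, and snoRNA:U3:54Ab at 2.16 with a ratio of 1.44, tied with snoRNA:U3:54Aa. Singled out afterwards, the most abundant 28S rRNA pseudogenes had ratios of 0.01 for 28SrRNA-Psi:CR41609 and 0.02 for 28SrRNA-Psi:CR45860, inside the interval of 7SL RNA. Of the 15 eligible genes with a mean FPKM of 1000 or more, both 7SL RNA copies included, 3 had ratios below that of summed 7SL RNA: 28SrRNA-Psi:CR45848 and, by less than the interval of 7SL RNA, 28SrRNA-Psi:CR41609 and the copy 7SLRNA:CR42652.

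Of 3 other structural RNAs, 2 had ratios above that of 7SL RNA by more than the intervals. snRNA:7SK, the RNA of a particle that sequesters P-TEFb, had 1054 FPKM in the Lsd1-RIP and 526 in the IgG-RIP library, 2.01-fold higher (0.92 to 1.08 on the log2 scale). RNaseMRP:RNA, the RNA of an enzyme of pre-rRNA processing, had a ratio of 0.76 (0.64 to 0.87). RNaseP:RNA, the RNA of the enzyme that trims tRNA precursors, had 209 FPKM in the Lsd1-RIP and 179 in the IgG-RIP library, a ratio of 0.22 (-0.06 to 0.49). The intervals of 7SK and RNase MRP RNA lay above that of 7SL RNA, and the interval of RNase P RNA held it.

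The mRNAs of proteins that transcribe and bind small RNAs were nearer to 7SL RNA in ratio. Of 9 such genes, 7 were eligible, with a median of 0.14. Both the count and the median include Tbp, which was listed at 0 for IgG-RIP. All 7 lay above 7SL RNA, Tbp only by way of that 0, as did most eligible genes, with 15.5% below it. La, which binds the ends of new RNA polymerase III transcripts, had 29.7 FPKM in the Lsd1-RIP and 28.8 in the IgG-RIP library, a ratio of 0.04 (-0.11 to 0.20). RpIII128, an RNA polymerase III subunit gene, was lowest at 0.04. Pbp49, of the complex that binds the promoters of small nuclear RNA genes, was at 0.38, the highest of those above 0 in both libraries. Tbp had 3.13 FPKM in the Lsd1-RIP library but a listed value of 0 for IgG-RIP, so no fold is given.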

How the data were processed

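Gene FPKM values with lower and upper bounds were deposited by the authors, 1 table per library, per the file headers. Per the submitters' processing notes the build was dm6, and the tools included Cufflinks, SAMtools 0.1.18.0 and Bowtie2 2.0.6.0. For Cufflinks the version and options, and the annotation, are not given in these sources. Libraries were made with a TruSeq RNA kit without poly(A) selection, per the labels' protocols.

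Genes were joined by gene number and locus, and start coordinates were converted to count from 1. Symbols and biotypes came from a RefSeq table of Release 6 plus ISO1 MT, which matched 17643 of 17720 genes. An FPKM of 0 can be a failed estimate, since 25 loci carry the status HIDATA, so such genes are described as listed at 0. Ratios are on the log2(FPKM + 1) scale, which understates the change of low genes. Approximate fragments were taken as (2 × FPKM / (upper bound − FPKM)) squared. They are not exact: 41.7% of the 7225 from 0.5 to 30 came within 0.02 of whole numbers. Where a gene has several isoforms, uncertainty of assignment may widen its bounds. Fragment ratios were scaled by the libraries' ratio of fragments per FPKM, 0.855. For summed 7SL RNA the bounds were summed. Intervals and shares cover counting error only, and PCR duplicates could not be removed. Read counts were not used. The calculations were tested on simulated fragments and run in Python 3.11.15 with pandas 2.3.3 and numpy 2.4.6.

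The members and gene lists were chosen with earlier results of these data known. Named genes were all members, the highest and lowest of each list, the 3 genes nearest to 7SL RNA and genes overlapping a member. La, RNaseMRP:RNA, tj, the other markers and 28S rRNA pseudogenes named outside this rule were chosen after their values were seen. Pseudocounts of 0.1 and 5, other FPKM minimums, centring, equal sums, fragments, and removal of the median of like abundance or length were tried.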

Additional observations from a re-analysis of the deposited data

How the results depend on the processing

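No paired analysis was possible because each group had 1 library. No member was 2-fold apart under any of the 10 alternatives, of which removal of length groups and leaving out Gtp-bp were chosen after seeing the data. The 7SL RNA ratio of 0.01 was -0.31 with the all-gene median removed, -0.38 with equal FPKM sums outside ribosomal RNA loci, -0.21 with the median of like abundance removed and -0.10 with that of like length removed. The mRNA median of 0.25 was -0.072, -0.089, -0.094 and 0.010 under these 4, which shift ratios by construction. Under both pseudocounts, both FPKM minimums, approximate fragments and leaving out Gtp-bp, it ranged between 0.16 and 0.29. The all-gene median moves with the measure too: by approximate fragments it was 0.43, beside 0.19 for the mRNAs. 7SL RNA stayed below the mRNA median under all 10, by 0.11 to 0.29. Centring on the all-gene median and having no FPKM minimum could not change this difference, which stayed at -0.24. The number of mRNAs above 7SL RNA was 5 to 7 of 8, or 6 of 7 and 5 of 7 where 1 mRNA dropped out. Depth limits the mRNAs most: the intervals of Srp14, Srp19 and Srp9 reached 0.56, 0.49 and 0.46 either way on the log2 scale, and smaller differences were not detectable for them.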
